A study of Rattus norvegicus with 6 samples.

Results

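The miR-148 and miR-152 seed family holds the mature products of 3 stem-loops, miR-148a, miR-148b and miR-152, and all 6 of them were found by name among the 763 rat miRNAs of the deposited count table. They were chosen as a family by name, with no measured value in the rule. All 6 passed the filter on low counts and were among the 404 miRNAs tested. The libraries were made from plasma exosomes, small vesicles released by many cell types. The rats were male Sprague-Dawley animals aged 7 to 8 weeks. R-exo, with 3 libraries, came from rats in which remote ischemic pre-conditioning (RIPC) had been induced with rubber bands around both hind limbs, in 4 cycles of 5 min ischemia and 5 min reperfusion. C-exo, with 3 libraries, came from control rats without RIPC. For both groups, aortic blood was collected under anesthesia 48 h after the protocol, in the late phase of RIPC. Neither the labels nor the methods say whether each library came from 1 animal or from pooled plasma, so p-values measure the spread between these RNA samples.

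A miRNA guides an Argonaute protein to transcripts that pair with its seed, bases 2 to 8 from the 5′ end. miRNAs with the same seed can therefore repress overlapping sets of transcripts. Each stem-loop yields a 5p and a 3p arm. The strand that stays in Argonaute is called the guide, and the other, the passenger, is mostly degraded. Members of the miR-148 and miR-152 family are known to repress DNMT1, the maintenance DNA methyltransferase. miR-148a is known to be abundant in liver, where it represses the receptor for low-density lipoprotein and the cholesterol exporter ABCA1.

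The mature sequences are shown because the seed defines the family and because the 3p strands are nearly alike. A RefSeq sequence (build GRCr8) was at hand for 5 of the 6 members, all except rno-miR-148b-5p. The seed is in capitals.
rno-miR-148a-3p: uCAGUGCAcuacagaacuuug
rno-miR-148b-3p: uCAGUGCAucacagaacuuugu
rno-miR-152-3p: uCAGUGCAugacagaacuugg
rno-miR-148a-5p: aAAGUUCUgagacacucugacuc
rno-miR-152-5p: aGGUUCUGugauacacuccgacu
The 3p strands share the seed CAGUGCA, which no other mature rat miRNA of the RefSeq table has. Counted from 1 at the 5′ end, with the base of the first-named strand first, miR-148a-3p and miR-148b-3p differed over 21 bases by C9U and U10C. miR-148a-3p and miR-152-3p differed by C9U, U10G and U20G, and miR-148b-3p and miR-152-3p by C10G and U20G. All of these differences lie outside the seed. The 5p strands of miR-148a and miR-152 have different seeds, AAGUUCU and GGUUCUG, each found in no other mature miRNA of the table.

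The stem-loops that RefSeq lists in full are shown to place the arms, with the annotated mature strands in capitals.
rno-mir-148a: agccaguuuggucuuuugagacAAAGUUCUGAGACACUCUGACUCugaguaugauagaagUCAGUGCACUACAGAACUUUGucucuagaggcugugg
rno-mir-148b: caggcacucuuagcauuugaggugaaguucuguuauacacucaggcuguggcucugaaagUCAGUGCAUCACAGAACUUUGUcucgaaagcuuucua
In GRCr8 miR-148a-3p is encoded on the minus strand at chr4:81664447-81664467, miR-148b-3p on the plus strand at chr7:136299930-136299951 and miR-152-3p on the plus strand at chr10:82329435-82329455. The submitters' processing notes name the build rn6, and no coordinates were converted. The stem-loop of miR-148b lies within the span of Copz1 and that of miR-152 within the span of Copz2, genes for zeta subunits of the coatomer, the coat of transport vesicles between the Golgi and the endoplasmic reticulum. No gene span of the RefSeq table holds that of miR-148a.

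The libraries held between 5484209 and 7531737 counts on miRNAs, and 3 counts, used here as the detection floor, equal 0.369 to 0.672 CPM. CPM is the count scaled to a common library size with TMM factors. C-exo replicate 3 stood apart from the other C-exo libraries. In this library 81.9% of the 404 tested miRNAs had a log2 CPM closer to that of R-exo on average than to that of its own group. The same held for 25.2% in C-exo replicate 1 and 30.7% in C-exo replicate 2. Levels, shares and arm use are also given without C-exo replicate 3. Since it is set aside for its likeness to R-exo, leaving it out widens differences by construction, and the p-values and intervals of that fit depend on the outcome.

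rno-miR-148a-3p, the most abundant member, was among the most abundant miRNAs of plasma exosomes. It took 5.19%, 5.33% and 11.5% of all counts in C-exo replicates 1, 2 and 3, and 9.01%, 8.70% and 7.34% in R-exo replicates 1, 2 and 3. Wilson 95% intervals of these shares were at most ± 0.0228 percentage points and cover counting error only. Ordered by count it was number 6, 6 and 1 among the miRNAs of C-exo and number 2, 1 and 3 among those of R-exo, and by mean CPM it ranked 3 of all listed miRNAs. Scaled by TMM, its level was 63760, 47960 and 123581 CPM in C-exo replicates 1, 2 and 3. In R-exo replicates 1, 2 and 3 it was 77975, 87219 and 71495 CPM. The R-exo libraries lay close together and within the range of C-exo, whose replicate 3 was the highest of all and replicate 2 the lowest. The means were 78434 ± 39889 CPM in C-exo and 78896 ± 7903 CPM in R-exo (SD, n = 3 each). The log2 fold change of R-exo over C-exo was 0.01 with a standard error of 0.43 (adjusted p = 0.99 by the quasi-likelihood test of edgeR, corrected by Benjamini-Hochberg over the 404 miRNAs). With the 10 most abundant miRNAs kept out of the TMM factors, or only miRNAs with at least 10 counts in every library, it lay just below 0. Its 95% interval, -0.96 to 0.97, spans nearly 2-fold in either direction, so a difference of that size could not be seen with this spread. With C-exo replicate 3 left aside, miR-148a-3p had a log2 fold change of 0.51 (95% interval -0.17 to 1.19, adjusted p = 0.22 by edgeR as above). In bulk exosome RNA, fewer vesicles from a source and fewer copies per vesicle cannot be told apart.

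rno-miR-152-3p was the second member by abundance, at 0.0803% to 0.237% of all counts. Its level was 987, 1941 and 2142 CPM in C-exo replicates 1, 2 and 3, and 1961, 2377 and 1412 CPM in R-exo replicates 1, 2 and 3. C-exo replicate 1 was the lowest and R-exo replicate 2 the highest, and the groups overlapped. The log2 fold change of miR-152-3p was 0.18 with a standard error of 0.46 (95% interval -0.86 to 1.22, adjusted p = 0.86 by edgeR as above). rno-miR-148b-3p, the least abundant of the guide strands, stood at 392, 530 and 666 CPM across C-exo, and at 567, 511 and 462 CPM across R-exo. The R-exo values again fell inside the range of C-exo. The log2 fold change of miR-148b-3p was -0.04 with a standard error of 0.41 (95% interval -0.97 to 0.89, adjusted p = 0.97 by edgeR as above). The direction of miR-148b-3p turned under RLE, library size and DESeq2 scaling. With C-exo replicate 3 left aside, the log2 fold changes of miR-152-3p and miR-148b-3p were 0.40 and 0.17.

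**Figure D1:**
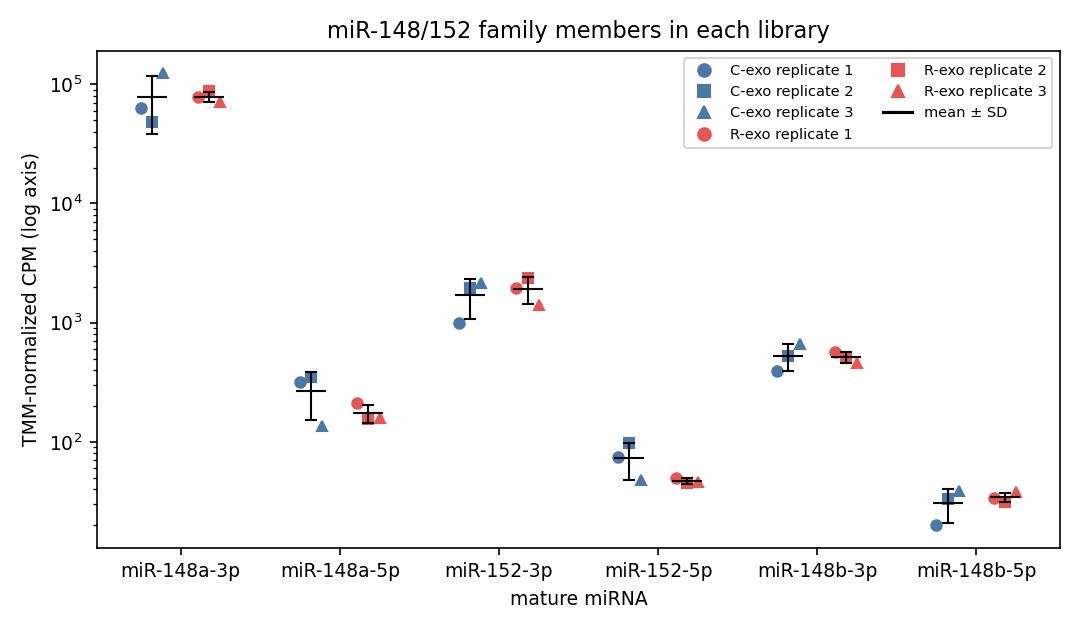
TMM-normalized CPM of the 6 family members on a log axis, with a point for each library of C-exo (blue) and R-exo (red) and black bars for the mean ± SD of 3 libraries. The R-exo points of miR-148a-3p, from 71495 to 87219 CPM, lie within the C-exo range of 47960 to 123581 CPM, and the groups overlap for every member.

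The passenger strands were rarer by far, and those of miR-148a and miR-152 were lower in R-exo by the mean without passing the test. rno-miR-148a-5p had 320, 351 and 136 CPM in C-exo replicates 1, 2 and 3 and 210, 154 and 157 CPM in R-exo replicates 1, 2 and 3. C-exo replicate 3 was the lowest of all libraries, whereas it was the highest for the guide of the same stem-loop. The log2 fold change of miR-148a-5p was -0.63 with a standard error of 0.48 (95% interval -1.70 to 0.45, adjusted p = 0.51 by edgeR as above). rno-miR-152-5p stood at 74.2, 97.7 and 47.4 CPM across C-exo, and at 49.99, 44.8 and 45.9 CPM across R-exo. Only C-exo replicate 3 kept its groups from separating, since it lay between R-exo replicates 1 and 3. The log2 fold change of miR-152-5p was -0.64 with a standard error of 0.43 (95% interval -1.61 to 0.33, adjusted p = 0.51 by edgeR as above). rno-miR-148b-5p, the rarest member, stood at 19.9, 33.4 and 38.5 CPM across C-exo, and at 33.6, 31.4 and 37.7 CPM across R-exo, which were 89 to 286 counts a library. Its low value was C-exo replicate 1, and its log2 fold change was 0.16 with a standard error of 0.43 (adjusted p = 0.86 by edgeR as above).

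No member met any of the call rules. At an adjusted p under 0.05, 0 of the 6 members and 0% of the 404 tested miRNAs were called by edgeR's quasi-likelihood test, by DESeq2 and by limma-voom, while 38 miRNAs, none of them a member, had an unadjusted p under 0.05 in edgeR, and 50 each in DESeq2 and limma-voom. By the rule of the study, which asks for more than 2-fold in either direction and an unadjusted p below 0.05, 0 of the 6 were called against 9.41% of the tested miRNAs. The groups overlapped for all 6 members and did not overlap for 12.9% of the tested miRNAs. Without C-exo replicate 3 the call rate over all miRNAs was far higher and the members were still not called by the rules that use a p-value. In that fit 31.3% of 422 tested miRNAs had an adjusted p under 0.05 and 43.1% met the rule of the study, against 0 of the 6 members by either rule. The members nearest to it were the passenger strands miR-148a-5p, with a log2 fold change of -0.94 (unadjusted p = 0.033, adjusted p = 0.081 in the edgeR test), and miR-152-5p, with -0.86 (unadjusted p = 0.048, adjusted p = 0.11 in the edgeR test). Without C-exo replicate 2 instead, their log2 fold changes were nearer to 0, at -0.36 and -0.34. With C-exo replicate 3 left out, the groups no longer overlapped for miR-148a-3p, miR-148a-5p and miR-152-5p, and still did for the other members. For how many of all tested miRNAs this held was not counted, and leaving that library out widens differences by construction.

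**Figure D2:**
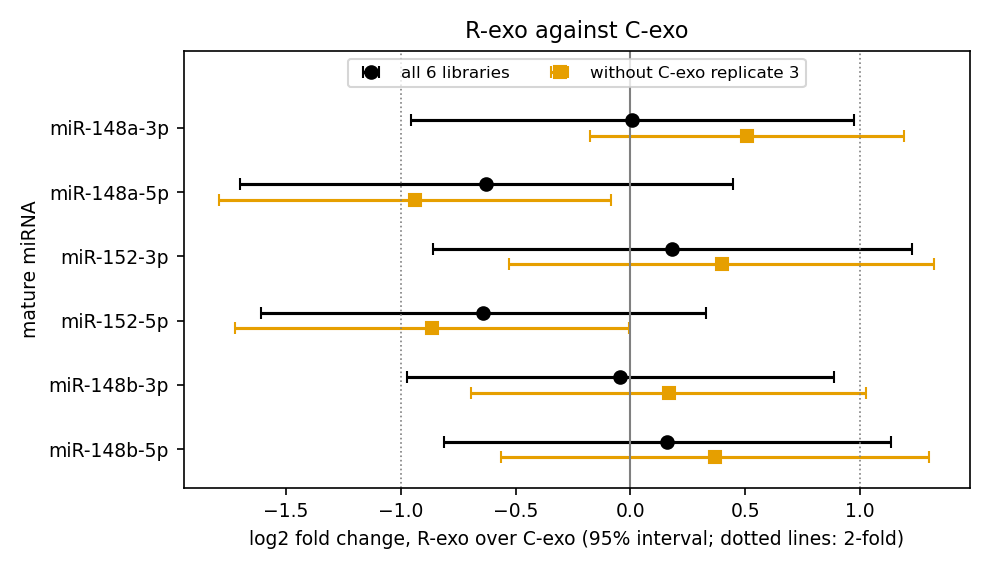
Log2 fold change of R-exo over C-exo for each member with its 95% interval from edgeR's quasi-likelihood fit, with all 6 libraries (black) and without C-exo replicate 3 (orange), and dotted lines at 2-fold. With all 6 libraries every interval spans 0, and without C-exo replicate 3 those of miR-148a-5p and miR-152-5p end just below 0, in a fit that leaves out a control library for its likeness to R-exo.

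The family as a whole took 5.33%, 5.66% and 11.8% of all counts in C-exo replicates 1, 2 and 3, and 9.34%, 9.01% and 7.56% in R-exo replicates 1, 2 and 3. The mean share was 7.60% ± 3.65 in C-exo and 8.64% ± 0.947 in R-exo (SD, n = 3 each), a difference of 1.03 percentage points that was smaller than the spread in C-exo. It was 3.14 points without C-exo replicate 3 and -0.10 points without C-exo replicate 1. Nearly all of it was miR-148a-3p, which made up between 94.2% and 97.6% of the family counts in every library. miR-152-3p made up between 1.51% and 3.81% and miR-148b-3p between 0.526% and 1.04%. The 3 passenger strands together held between 0.0207% and 0.0536% of all counts.

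Grouped by seed, the 3p strands of the family were among the leading seed groups of these libraries. A RefSeq sequence was found for 686 of the 763 miRNAs, which held between 68.5% and 87.0% of the counts of a library and fell into 582 seeds. Among these seeds CAGUGCA ranked 2 by its mean share, and in single libraries it ranked 4, 5 and 1 in C-exo and 2, 1 and 4 in R-exo. The ranking leaves out miR-486, which had no sequence in the table and took a mean of 8.23% of all counts, against 8.09% for CAGUGCA. With each unmatched miRNA kept as a group of its own, a choice made after the data were seen, CAGUGCA ranked 3 by mean share, and 6, 6 and 1 in C-exo and 2, 1 and 4 in R-exo. Among the matched seeds that of miR-24-3p ranked 1, at 8.44% ± 0.513 in C-exo and 8.98% ± 0.514 in R-exo (SD, n = 3). That of let-7 and miR-98 ranked 3, at 3.89% ± 1.94 and 9.13% ± 2.13, and that of miR-378a-3p ranked 4, at 7.69% ± 4.72 and 3.95% ± 2.17. The share of the miR-148 and miR-152 guides, 7.57% ± 3.67 in C-exo and 8.61% ± 0.944 in R-exo, varied more within C-exo than that of miR-24-3p. It was below miR-24-3p in C-exo replicates 1 and 2, at 5.30% against 7.94% and 5.61% against 8.96%, and above it in C-exo replicate 3, at 11.8% against 8.43%, so its C-exo mean rests on that library. The hexamer AGUGCA of the seed also stands a base earlier in the miR-130/301 family, which was rare here. miR-130a-3p, named for this match, had a mean of 84.8 CPM in C-exo and 103 CPM in R-exo.

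**Figure D3:**
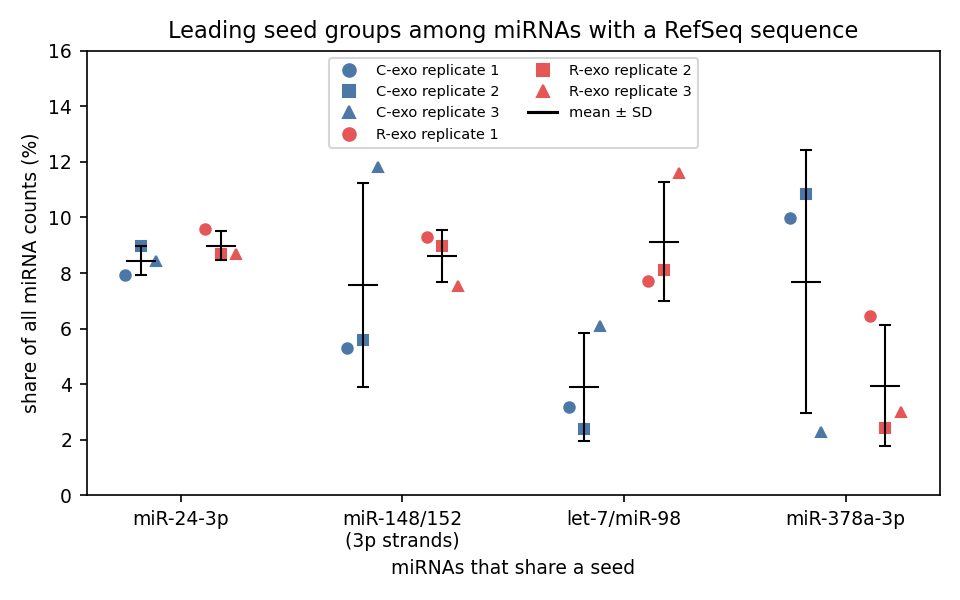
Share of all miRNA counts in percent taken by the 4 seed groups with the highest mean share among miRNAs with a RefSeq sequence, which leaves out miR-486, with a point for each library and bars for the mean ± SD of 3 libraries of each group. The miR-148 and miR-152 guides range from 5.30% to 11.8% in C-exo and, more narrowly, from 7.54% to 9.31% in R-exo.

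The order of the members was the same in each of the 6 libraries. miR-148a-3p was followed by miR-152-3p, miR-148b-3p, miR-148a-5p, miR-152-5p and miR-148b-5p, for strands whose known lengths are 21 to 23 bases. The distances between them were not fixed. Per 100 counts of miR-148a-3p there were 1.55, 4.05 and 1.73 counts of miR-152-3p in C-exo replicates 1, 2 and 3, and 2.52, 2.73 and 1.97 in R-exo replicates 1, 2 and 3. For miR-148b-3p there were 0.614, 1.10 and 0.539 counts in C-exo and 0.728, 0.586 and 0.647 in R-exo. C-exo replicate 2 had the highest ratio of each. The 3p strands differ from each other at 2 or 3 bases, and the mismatch rule of the authors' counting is not given in the sources used here. The counts of miR-148b-3p and miR-152-3p are therefore uncertain, as are the ratios and arm shares made from them, and whether reads of the much more abundant miR-148a-3p are among them was not tested. The ratio of miR-152-3p to miR-148b-3p counts was 2.52, 3.66 and 3.22 in C-exo and 3.46, 4.65 and 3.05 in R-exo.

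The 3p arm was the dominant arm of all 3 stem-loops, but not to the same degree. For miR-148a the 5p arm held 0.499%, 0.727% and 0.110% of the stem-loop counts in C-exo replicates 1, 2 and 3, and 0.269%, 0.177% and 0.220% in R-exo replicates 1, 2 and 3. For C-exo replicate 3 this was 955 against 868891 counts (Wilson 95% interval of the 5p share 0.103% to 0.117%). For miR-152 the 5p arm held 6.99%, 4.79% and 2.16% in C-exo and 2.49%, 1.85% and 3.15% in R-exo. In both stem-loops the 5p share was high in C-exo replicates 1 and 2, and C-exo replicate 3 lay with or below the R-exo libraries. For miR-148b the 5p arm held 4.85%, 5.93% and 5.47% in C-exo and 5.59%, 5.80% and 7.54% in R-exo, and here C-exo replicate 3 was unremarkable.

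The mean 5p share of the miR-148a stem-loop was 0.445% ± 0.312 in C-exo and 0.222% ± 0.0462 in R-exo (SD, n = 3 each; exact two-sided permutation p = 0.4). For miR-152 it was 4.65% ± 2.42 and 2.49% ± 0.650 (exact two-sided permutation p = 0.3), and for miR-148b 5.42% ± 0.544 and 6.31% ± 1.07 (exact two-sided permutation p = 0.4). All 3 exact permutation p-values were 0.4 after Benjamini-Hochberg adjustment over the 3 stem-loops, and 3 libraries against 3 cannot give less than 0.1. The groups overlapped in all 3 stem-loops. Among 167 stem-loops with both arms listed and a mean of at least 100 counts a library, they did not overlap in 10.2%. Without C-exo replicate 3 they did not overlap for miR-148a, at 0.613% against 0.222%, and for miR-152, at 5.89% against 2.49%, but did for miR-148b. In the same libraries 44.9% of the 167 stem-loops did not overlap, so this separation was common. Other libraries moved the differences the other way. The 3p share of miR-148a was higher in R-exo by 0.223 percentage points with all libraries and by 0.0827 points without C-exo replicate 2, and that of miR-152 by 2.15 points and by 0.982 points without C-exo replicate 1. For miR-148b the difference in 3p share was -0.895 points with all libraries and -0.278 points without R-exo replicate 3. By the mean share of the dominant arm, whichever arm that was, miR-148a was more one-sided than 65.9% of the 167 stem-loops, miR-152 than 39.5% and miR-148b than 34.1%.

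**Figure D4:**
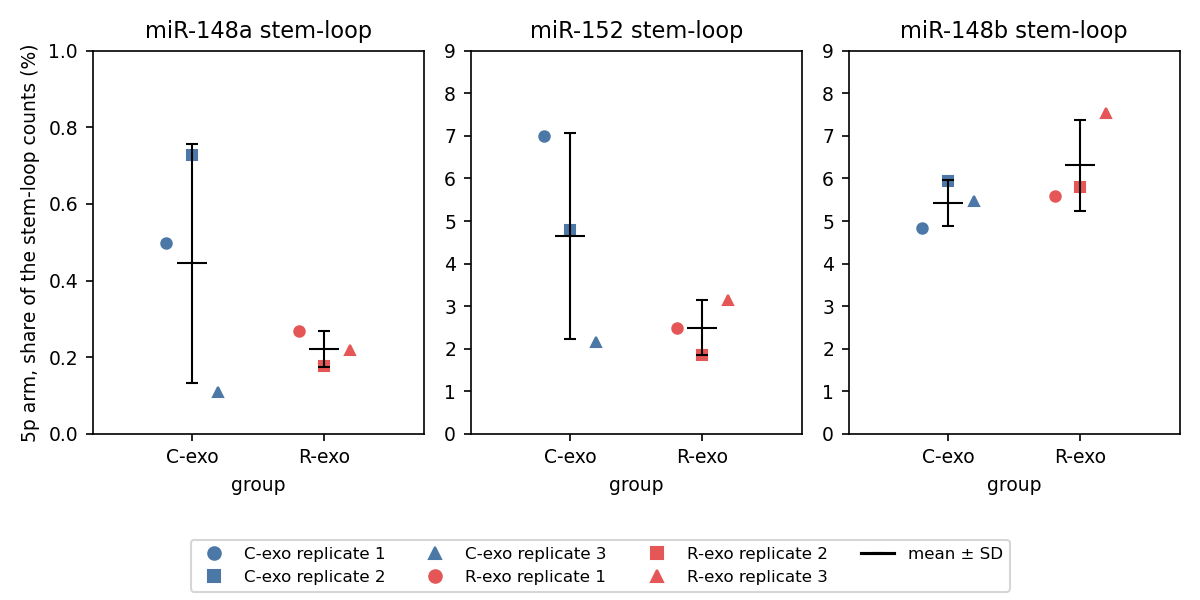
Share of the 5p arm among the counts of each stem-loop in percent, with a point for each library and bars for the mean ± SD of 3 libraries; the scale for miR-148a differs from that of the other stem-loops. C-exo replicates 1 and 2 are the highest for miR-148a and miR-152, and C-exo replicate 3 lies at 0.110% and 2.16%.

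Across the 6 libraries the members fell into different patterns. The likeness of a pair was taken as the root mean square difference of log2 CPM after each member was centred on its mean, so that a small value means a like pattern, and these distances are descriptions over 6 libraries that share depth and scaling. miR-148a-5p and miR-152-5p, from different stem-loops, were 0.20 apart, and among the 403 other tested miRNAs miR-152-5p ranked 3 in likeness to miR-148a-5p. miR-148b-3p and its own passenger miR-148b-5p were 0.20 apart, rank 6. By contrast miR-148a-3p and its own passenger were 0.91 apart, rank 259, and miR-152-3p and its passenger 0.69 apart. Among the guides, miR-148b-3p lay 0.34 from miR-148a-3p and 0.27 from miR-152-3p, and miR-148a-3p and miR-152-3p were 0.46 apart, rank 64. Hence miR-148b-3p lay nearer to its own passenger than to either other guide, and miR-152-3p nearer to miR-148b-5p, at 0.30, than to miR-148a-3p. In C-exo replicate 3 the deviation from the mean was 0.71 for miR-148a-3p and -0.60 for miR-148a-5p on the log2 scale.

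**Figure D5:**
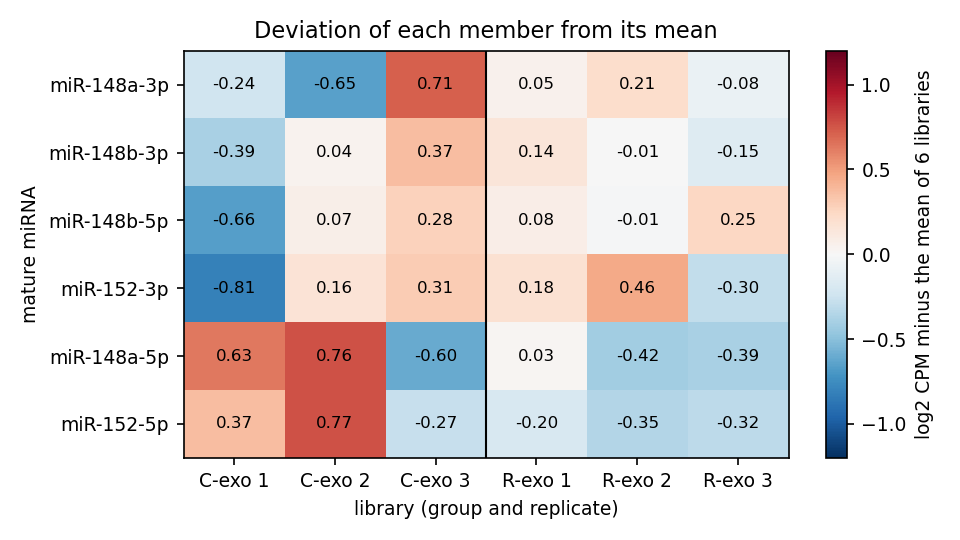
Log2 CPM of each member minus its mean over the 6 libraries, with red above and blue below the mean and the black line between C-exo and R-exo. miR-148a-5p and miR-152-5p are above their mean in C-exo replicates 1 and 2 and below it in C-exo replicate 3, where the other 4 members are above theirs.

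For all 6 members C-exo replicate 3 lay closer to R-exo on average than to its own group, as it did for most tested miRNAs. Relative to C-exo replicates 1 and 2 it was higher by 1.16 for miR-148a-3p on the log2 scale, and the mean of R-exo was higher by 0.51. For miR-148a-5p it was lower, with a difference of -1.30, and R-exo with -0.96. For miR-152-5p these differences were nearly equal, -0.84 and -0.86. The SD of log2 CPM was larger in C-exo than in R-exo for all 6 members, which also held for 82.4% of the tested miRNAs. It was 0.70 in C-exo and 0.14 in R-exo for miR-148a-3p, against medians of 0.81 and 0.39 over the tested miRNAs, so the R-exo libraries were closer together for this miRNA than for most. The smallest SD was that of miR-152-5p in R-exo, 0.083.

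The miRNAs outside the family whose pattern was most like that of each guide are given as a description. They were picked for likeness over the same 6 libraries, so their fold changes resemble those of the guides by construction. For miR-148a-3p they were miR-30e-3p (0.13 apart), miR-17-5p (0.19) and miR-139-5p (0.21), where the median distance to a tested miRNA was 0.75. miR-30e-3p stood at 375.4, 317 and 693 CPM across C-exo, and at 539, 613 and 495 CPM across R-exo, a low and a high C-exo library in the same places as for miR-148a-3p. For miR-148b-3p the nearest were miR-30a-3p (0.17), miR-181a-5p (0.19) and miR-99b-5p (0.20). For miR-152-3p they were miR-188-5p (0.17), miR-21-3p (0.22) and miR-203b-3p (0.22), of which miR-188-5p and miR-21-3p were below 8 CPM in every library. Their log2 fold changes were between -0.27 and 0.43, with adjusted p from 0.72 to 0.99 (edgeR's quasi-likelihood test). Of all 404 tested miRNAs, 0% had an adjusted p under 0.05 in that test.

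Other miRNAs known to repress chromatin-modifying enzymes, as the miR-148 and miR-152 family does for DNMT1, were described for comparison. The list held miR-29a-3p, miR-29b-3p, miR-29c-3p and miR-143-3p, for DNA methyltransferases of the DNMT3 class, miR-342-3p and miR-185-5p, for DNMT1, miR-101a-3p, miR-101b-3p, miR-26a-5p and miR-26b-5p, for the histone methyltransferase EZH2, and miR-140-5p, for the histone deacetylase HDAC4, together with miR-140-3p, the other arm of its stem-loop, which has another seed. All 12 were tested. Of them 0 met the rule of the study, against 9.41% of all tested miRNAs, and 0 had an adjusted p under 0.05, against 0% (edgeR's quasi-likelihood test). Their median log2 fold change was 0.62, against -0.05 over all tested miRNAs, and 11 of the 12 were above 0, against 197 of the 404. The 12 are not independent, since several belong to the same family or stem-loop. The list was also chosen with earlier results of these data known. In C-exo replicate 3, however, 10 of the 12 were higher than in both other C-exo libraries. For how many of all tested miRNAs this held was not counted. Of the 12, miR-26a-5p had 2177, 2106 and 14862 CPM in C-exo replicates 1, 2 and 3 and 12558 to 17771 CPM in R-exo. The groups overlapped for each of the 12, and did not overlap for 12.9% of all tested miRNAs. The most abundant were miR-143-3p and miR-140-3p. miR-143-3p stood at 10778, 42747 and 55438 CPM across C-exo, and at 42361, 78879 and 87678 CPM across R-exo, and its log2 fold change was 0.94 with a standard error of 0.59 (adjusted p = 0.51 by edgeR as above). miR-140-3p had a log2 fold change of 0.06 with a standard error of 0.42 (adjusted p = 0.96 by edgeR as above).

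Marker lists for cells that could contribute exosomes were described in C-exo replicate 3 against both other C-exo libraries. The endothelial list holds only 2 markers, the arms of the miR-126a stem-loop, and both were higher there. Of the 4 pancreas markers 3 were higher and 0 lower, and of the 4 leukocyte and platelet markers 2 were higher and 0 lower. The other lists had markers that were higher and markers that were lower. Of the 21 markers, 13 were higher in C-exo replicate 3 than in both other C-exo libraries, miR-216a-5p among them below the detection floor. Lower than in both were 4. The same count over all tested miRNAs was not made, so these numbers are not particular to the markers. The summed level of 4 leukocyte and platelet miRNAs (miR-223-3p, miR-142-3p, miR-142-5p and miR-150-5p) was 21385 CPM in C-exo replicate 3, against 5001 and 3553 CPM in C-exo replicates 1 and 2 and 11448 to 26859 CPM in R-exo. Most of it was miR-142-5p, at 18749 CPM, while miR-223-3p, at 444 CPM, and miR-142-3p, at 359 CPM, lay between the other C-exo libraries. The 4 striated muscle miRNAs (miR-1-3p, miR-133a-3p, miR-133b-3p and miR-206-3p) summed to 9681 CPM in it, against 2094 and 3092 CPM, and 1688 to 5858 CPM in R-exo. There miR-1-3p, at 7110 CPM, carried the sum, and miR-133a-3p and miR-133b-3p were lower than in both other C-exo libraries. Both arms of miR-126a, the endothelial miRNA, were higher in it and summed to 16771 CPM, against 4722 and 7336 CPM, and 20585 to 30331 CPM in R-exo.

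The 4 red cell miRNAs (miR-451-5p, miR-144-3p, miR-144-5p and miR-486) summed to 69273 CPM in that library, against 198074 and 92396 CPM for C-exo replicates 1 and 2, and 44536 to 74959 CPM in R-exo. This sum was nearly all miR-486, which was lower in C-exo replicate 3, whereas miR-451-5p and miR-144-5p were higher than in both other C-exo libraries and miR-144-3p lay between them. The 3 liver miRNAs (miR-122-5p, miR-192-5p and miR-194-5p), from a tissue in which miR-148a is abundant, summed to 79866, 104496 and 109248 CPM in C-exo and 76438 to 81303 CPM in R-exo. In C-exo replicate 3 miR-192-5p was lower than in both other C-exo libraries, and miR-122-5p and miR-194-5p were higher. The 4 pancreas miRNAs (miR-216a-5p, miR-216b-5p, miR-217-5p and miR-375-3p) summed to 2341 to 5357 CPM in C-exo and 1675 to 3046 CPM in R-exo, nearly all of it miR-375-3p, with miR-216a-5p and miR-216b-5p at 0 in at least 1 library. No marker of the other lists was at 0 in any library. Of the 19 markers tested, 4 met the rule of the study, against 9.41% of all tested miRNAs, and were higher in R-exo: miR-144-3p, miR-144-5p, miR-126a-3p and miR-217-5p. The groups overlapped for miR-217-5p, whose R-exo mean was set by replicate 2, with 5.38, 6.66 and 19.3 CPM across C-exo and 19.8, 125 and 10.4 CPM across R-exo. The part of these cell sources in the levels of the miR-148 and miR-152 family was not tested.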

How the data were processed

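Small RNA libraries from 3 C-exo and 3 R-exo plasma exosome samples were sequenced on an Illumina HiSeq 2500. The authors deposited raw counts of reads per mature miRNA, not normalized or pooled. The submitters' processing notes name bcl2fastq, BWA and rn6, while trimming, the miRNA database and the mismatch rule are not given in the sources used here. No molecular identifiers are mentioned, and adaptor ligation and PCR can favour some sequences, so levels of different miRNAs compare reads rather than molecules.

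Counts were fitted in R 4.3.3 with edgeR 4.0.16 (filterByExpr with a minimum count of 10, TMM, glmQLFTest, condition as the only term) over 404 of the 598 miRNAs with any count, with Benjamini-Hochberg adjustment. Log2 CPM used a prior count of 2. Arm use was compared with scipy 1.17.1. Alternatives were other scalings and filters, DESeq2 1.42.0, limma-voom (limma 3.58.1), each library left out and a replicate block. The fit was tested on simulated data with 4-fold changes set in 200 miRNAs. At the common dispersion of these data, 0.285, it called 70.9% of the changed miRNAs tested, and 3 unchanged ones. At a dispersion of 0.05 it called 100%, and 11 unchanged ones. The simulation had the same dispersion for every miRNA and no control library that stood apart, unlike C-exo replicate 3. All libraries differed by more than sampling noise. The libraries held 5484209 to 7531737 counts.

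All members were named, with the 3 miRNAs nearest in pattern to each guide, the 2 most abundant of the chromatin list and the leading seeds. The members were chosen by name, and the lists with earlier results of these data known.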

Additional observations from a re-analysis of the deposited data

How the results depend on the processing

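Of the members, miR-148a-5p and miR-152-5p kept a log2 fold change below 0 and missed an adjusted p of 0.05 under all 15 alternatives (adjusted p 0.081 to 0.89 and 0.11 to 0.86, edgeR, DESeq2 or limma). The other members were not called either, but their directions turned. miR-148b-3p turned to 0.014 with RLE size factors, 0.10 with library size only and 0.014 with DESeq2, and miR-148a-3p to -0.024 with TMM without the 10 most abundant miRNAs and -0.0073 with at least 10 counts in every library. When 1 library at a time was omitted, log2 fold changes spanned -0.21 to 0.51 for miR-148a-3p, -0.27 to 0.17 for miR-148b-3p, -0.12 to 0.37 for miR-148b-5p, -0.16 to 0.40 for miR-152-3p, -0.94 to -0.36 for miR-148a-5p and -0.86 to -0.34 for miR-152-5p, where the cause was not tested. Over all miRNAs the number that met the rule of the study was 63 without a filter on low counts, where 598 were tested. It ranged from 15 to 182 when 1 library was omitted, at 15 without C-exo replicate 1 or R-exo replicate 3, 16 without R-exo replicate 2, 18 without C-exo replicate 2, 29 without R-exo replicate 1 and 182 without C-exo replicate 3. The number at an adjusted p under 0.05 ranged from 0 to 132 (edgeR), and was above 0 only without C-exo replicate 3. Replicate numbers are shared between groups but nothing says that they mark a common batch. Deviations from the group means of same-numbered libraries correlated at 0.33, -0.28 and 0.28, and 2 of the 6 libraries correlated best with their own number. With the replicate block 38 miRNAs again met the rule and no member was called. The directions of arm use in the 3 stem-loops held under every alternative run, while the difference in family share, though within the spread between libraries, turned to -0.059 percentage points with the 10 most abundant other miRNAs kept out of the total and to -0.10 without C-exo replicate 1. Groups of 3 are too small for a test of single outlying libraries, and 89 to 286 counts of miR-148b-5p limit what can be seen for the rarest strand.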
